A study of Mus musculus with 12 samples.

Results

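P3D8 is a clonal fibroblast line derived from a single *lacZ*+ cell of the mouse terminal phalanx (P3), and it was compared here in its chondrogenic state and in its expansion state. The comparison rests on 6 of the 12 libraries of the series: 3 of P3D8/BMP9, the cartilage formed by the line, and 3 of P3D8 monolayer, grouped by sample title. Members were the entries (RefSeq transcripts) whose normalized counts averaged 10 or more in these 6 libraries, which gave 5387 of the 106518 entries of the table, or 5248 gene symbols. Just inside this limit lay 113 entries with a mean under 11, and just outside it 150 with a mean of 9 or more. For P3D8/BMP9, cells of passage 6 were held in suspension in uncoated dishes with 2% fetal bovine serum, aggregated with 50 ng/ml BMP2 for 4 days and then kept in 50 ng/ml BMP9 for 14 days. For P3D8 monolayer, cells of the same passage grew attached to fibronectin with 2% fetal bovine serum, EGF and PDGF (10 ng/ml of each) and 0.5 ng/ml LIF, without BMP2 or BMP9, and were collected at 80% confluency. BMP2, BMP9, suspension, time in culture and the removal of fibronectin, EGF, PDGF and LIF therefore came together and cannot be told apart. The other 6 libraries are the same pair of cultures of a second clone, P3E3. Each group was prepared from 3 separate cultures of 1 clone, so the p-values measure the spread between cultures of that clone and not between clones or animals.

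Bone morphogenetic proteins are secreted ligands of the TGFβ superfamily. BMP2 and BMP9 (GDF2) bind type I and type II receptor kinases, which phosphorylate Smad1, Smad5 and Smad8. With Smad4 these enter the nucleus and switch on *Id*, *Msx*, *Dlx* and *Smad7* genes, along with secreted antagonists such as Noggin that limit the signal. During skeletal development mesenchymal cells condense, express *Sox9* and lay down type II collagen, type IX and type XI collagens and the proteoglycan aggrecan. Chondrocytes of the growth plate later become hypertrophic and make type X collagen, whereas those at the joint surface remain as articular cartilage with its own surface proteins and inhibitors of BMP and Wnt signals. EGF, PDGF and LIF keep fibroblasts dividing through the ERK and STAT3 pathways.

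The 6 libraries held 7487581 to 8537956 counted reads. In 2 of them, P3D8/BMP9 replicate 1 and P3D8 monolayer replicate 3, the record's cell line field gives P3E3 although the title says D8. On the log2 scale, across the 5333 entries that averaged 10 or more in the 12 libraries, P3D8/BMP9 replicate 1 correlated with the other P3D8/BMP9 libraries at r = 0.990 to 0.993 and with P3E3/BMP9 at 0.941 to 0.947. P3D8 monolayer replicate 3 correlated with the other P3D8 monolayer libraries at 0.990 to 0.993 and with P3E3 monolayer at 0.957 to 0.959. Both thus lay with their titles. The 10 most counted entries held 27.7% to 29.1% of the normalized counts in P3D8/BMP9 and 12.4% to 13.3% in P3D8 monolayer. Values are normalized counts of single transcripts, so a gene with several transcripts may be undercounted, and a value near 0 for such a gene is not read as absence. In whole cultures fewer cells of a type and less RNA per cell cannot be told apart. A transcript near 0 in one group passed the minimum only where it was high in the other, so the counts of list members below describe the tested members and are not evidence for their lists. Over all tested entries 19.1% were called higher and 10.6% lower. List members named below the 4 largest of a list were chosen after their values had been seen. A log2 fold change understates the change of a gene near 0 in one group, so a lower bound of the fold, against a floor of 3 reads over the group, is given for genes at 0 in one group, and a second list median has such genes at their bound where that moves it. Ranges are the lowest and highest of 3 libraries.

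Between monolayer and cartilage 1027 entries (1004 genes, 19.1% of those tested) rose and 571 entries (564 genes, 10.6%) fell, where a call needed a log2 fold change past 1.5 in size and an adjusted p (Benjamini-Hochberg) under 0.05 from limma on log2(normalized count + 1), and both together were 29.7% of the entries tested. Without the fold threshold 2031 (37.7%) were higher and 2126 (39.5%) lower. The median log2 fold change over all tested entries was -0.03, with quartiles of -0.80 and 1.03. In 4285 entries (79.5%) the 3 P3D8/BMP9 libraries did not overlap with the 3 P3D8 monolayer libraries. Changes of large size were mostly increases, since 197 entries rose by at least 5 on the log2 scale and 26 fell by as much. In monolayer 81 tested entries were at 0 in all 3 libraries, and 3 were at 0 in all 3 cartilage libraries. With both libraries of conflicting cell line entry left out, 1047 entries were higher and 569 lower, and 1522 of the 1598 calls were shared. The balance depended on the scaling. With the authors' size factors (medians of ratios, set together with other datasets) the median log2 fold change of the tested entries was -0.03. Scaling to the library total moved the median log2 fold change by -0.38 and gave 840 higher and 926 lower entries, 47.6% of calls higher instead of 64.3%. Changes below are relative to the authors' scaling.

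**Figure D1:**
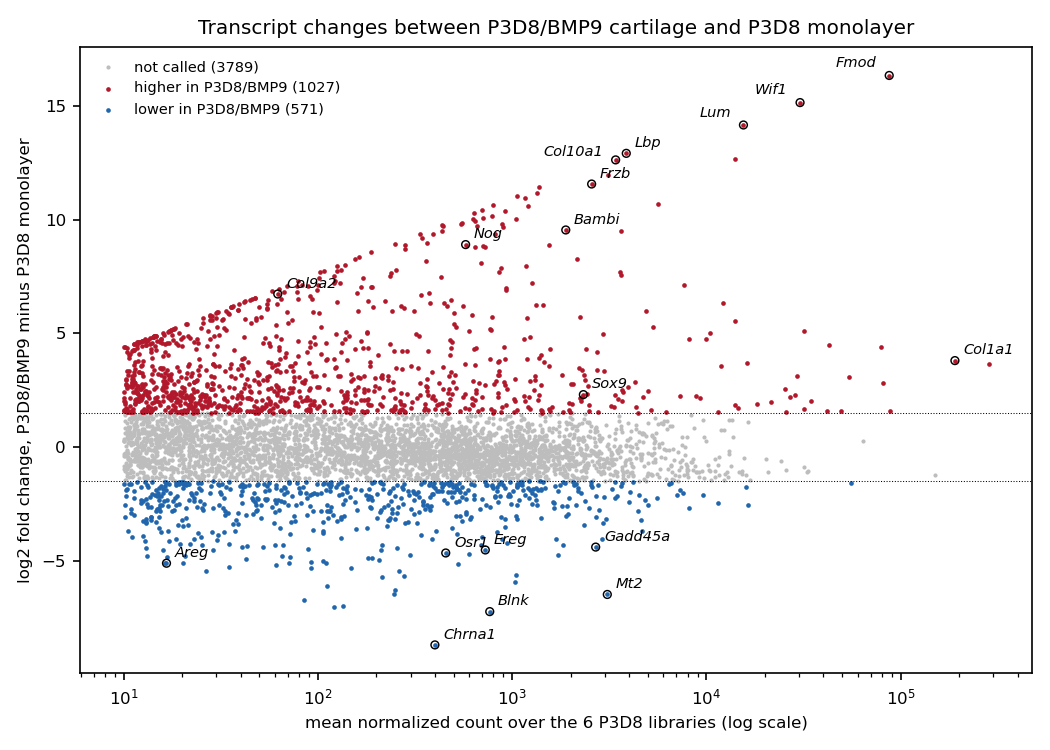
Log2 fold change of each of the 5387 tested transcripts (y axis, P3D8/BMP9 minus P3D8 monolayer, on log2(normalized count + 1)) against its mean normalized count over the 6 libraries (x axis, log scale); red points are the 1027 called higher, blue points the 571 called lower, grey points the rest, and dotted lines mark 1.5 and -1.5. *Fmod*, *Wif1* and *Lum* lie at the top right, at 16.33, 15.14 and 14.16, and *Chrna1* at the bottom, at -8.68; the upper left edge is formed by transcripts at or near 0 in monolayer.

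Among the 15 largest increases (transcripts called higher with a mean of at least 50 whose groups did not overlap) were secreted proteins of the matrix and inhibitors of Wnt and BMP signals. *Fmod* (chromosome 1, 134037254 to 134048280 in GRCm38.p6), which encodes fibromodulin, a small leucine-rich proteoglycan that binds collagen fibrils, was counted at 181666, 179603 and 162399 in the 3 P3D8/BMP9 libraries and at 0, 1.29 and 3.10 in the 3 P3D8 monolayer libraries. The cartilage libraries lay close together and every monolayer library was near 0 (log2 fold change 16.33 ± 0.40 SE, limma, adjusted p = 6.69e-10). *Wif1* (chromosome 10, 121034004 to 121100642 in GRCm38.p6), encoding Wnt inhibitory factor 1, stood at 61888, 61299 and 58811 against 0, 0.643 and 1.86 (log2 fold change 15.14 ± 0.30 SE, limma, adjusted p = 3.14e-10). *Lum* (chromosome 10, 97565501 to 97572703 in GRCm38.p6), encoding lumican, had 33115, 31454 and 28466 against 0.652, 1.93 and 0 (log2 fold change 14.16 ± 0.31 SE, limma, adjusted p = 4.4e-10). No monolayer library of these 3 genes came near any cartilage library. The rest of the 15 largest increases were *Lbp* (lipopolysaccharide binding protein), *Kctd12*, *Col10a1*, *Igfbp5*, *Frzb*, *Ppp1r3c* (a glycogen-targeting subunit of protein phosphatase 1), *Rspo3* (R-spondin 3, which amplifies Wnt signals), *Epyc*, *Chrdl1*, *Panx3*, *Susd5* and *Steap4*. *Lbp*, at 7162–8475 in cartilage, and *Ppp1r3c*, at 2474–2984, were at 0 in every monolayer library, which makes them at least 12113-fold and at least 4288-fold higher. *Rspo3* had 1 read in the 3 monolayer libraries together and 2540.3–2842 normalized counts in cartilage, a ratio of 12604 with a 95% counting interval of 2262 to 497872.

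Every tested cartilage collagen and matrix gene rose, while 19.1% of all tested entries did. The cartilage collagens and several matrix genes were near 0 in monolayer and could pass the minimum only by being high in cartilage. Their counts are therefore no evidence for these lists. Among cartilage collagens 3 of 7 in the table were tested and all 3 were higher, with a median log2 fold change of 5.99 (6.72 with the gene at 0 in monolayer set to its bound), and among other cartilage matrix genes 10 of 21 were tested and all 10 were higher, with a median of 6.80 (7.12 with 4 genes at their bounds). *Col9a2*, a chain of type IX collagen that decorates type II fibrils, was counted at 116, 126 and 129.8 in P3D8/BMP9 and at 0, 0 and 0.621 in monolayer. *Col2a1*, the main fibrillar collagen of hyaline cartilage, was counted at 56.7, 61.0 and 61.7 and at 0.652, 0 and 1.24. Both were higher in all 3 cartilage libraries than in any monolayer library, where they were at or under 1.24. In cartilage both were counted far below *Fmod* and *Col10a1*. *Acan*, the gene of aggrecan, stood at 23.9, 37.1 and 24.5 against 0 in all 3 monolayer libraries, at least 44.6-fold higher (log2 fold change 4.85 ± 0.30 SE, limma, adjusted p = 2.98e-07). *Col2a1* has 3 entries and *Acan* 2, and may be counted low. *Col27a1*, another fibrillar collagen of cartilage, stood at 56.7, 105 and 41.1 against 0 in monolayer.

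Several less studied matrix genes were counted far higher. *Susd5* was at 2624, 2439.8 and 2184 in cartilage and at 1.30, 0.643 and 0 in monolayer. *Cilp*, cartilage intermediate layer protein, was at 1783, 1903 and 1848 and at 0.652, 0 and 0.621, with a log2 fold change of 10.38 ± 0.22 SE (limma, adjusted p = 3.98e-10). *Clec3a*, a C-type lectin of cartilage, was at 1062, 580.1 and 986, with P3D8/BMP9 replicate 2 the lowest, and *Scrg1* was at 947, 859 and 797. Both were at 0 in all monolayer libraries. *Fibin* was at 9075–10123 in cartilage against 123–211 in monolayer (log2 fold change 5.96), and *Chad* (chondroadherin), *Scin* and *Comp* rose by 6.39, 7.21 and 4.35. Other defining genes were under the minimum. *Col9a1* was at 25.4, 22.2 and 11.9, *Col11a1* at 16.4, 9.89 and 20.6 and both at 0 in monolayer, while *Matn1*, *Matn3* and *Hapln1* stayed at or under 3.73 in every library and *Col11a2* and *Lect1* (chondromodulin) were at 0 in all 6.

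Small leucine-rich proteoglycans organise collagen fibrils. Of 14 in the table, 8 were tested and all 8 rose, with a median log2 fold change of 8.02 (8.34 with 3 genes at their bounds). After *Fmod* and *Lum* came *Epyc* (epiphycan), at 2138, 2397 and 1842 against 0 in monolayer, at least 3329-fold higher. *Ecm2* had 1774, 1828 and 1787 against 1.96, 1.29 and 0.621, and *Ogn* (osteoglycin) 25609, 24919 and 21574 against 296, 208 and 419. *Dcn* (decorin) differed least among the 8, at 1945, 2015 and 2057 against 403, 445 and 465, a log2 fold change of 2.20 ± 0.07 SE (limma, adjusted p = 6.07e-09). Its groups did not overlap, which held for all 1027 entries called higher.

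Among chondrocyte transcription factors 9 of 19 in the table were tested, of which 6 rose and 1 fell (median log2 fold change 2.24). *Sox9* (chromosome 11, 112782210 to 112787757 in GRCm38.p6), the factor that switches on cartilage collagens, was already counted in monolayer, at 721, 738 and 885, and reached 3953, 3791 and 3864 in cartilage (log2 fold change 2.31 ± 0.08 SE, limma, adjusted p = 9.42e-09). *Sox8*, of the same SoxE group, was at 0 in all monolayer libraries and at 244, 227 and 171 in cartilage. *Sox9* was thus counted in every monolayer library, at a lower level, and *Sox8* in none. *Nkx3-2* rose from 51.4–62.1 to 411–441, a log2 fold change of 2.85. *Runx2*, a factor of hypertrophy and bone with 20 entries in the table, rose from 7.07–8.69 to 32.4–46.1, and *Foxa3*, at 29.1–34.8 in cartilage against 0–0.652, rose as well. *Hoxa2* was called higher at 1.53, a call lost without P3D8/BMP9 replicate 1 (1.48) or 3 (1.43), without P3D8 monolayer replicate 3 (1.27) and without both libraries of conflicting cell line entry (1.22). The call was also lost with TMM scaling (1.49), scaling to the library total (1.22) or a pseudocount of 5 (1.12). *Foxc2* fell from 766–788 to 239.8–254 (log2 fold change -1.66 ± 0.07 SE, limma, adjusted p = 3.63e-08), while *Foxc1*, its close relative, had a log2 fold change of 1.29, under the fold threshold. *Sox5* was at 0 in all 6 libraries and *Sox6* at or under 3.16, with 28 and 31 entries each.

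**Figure D2:**
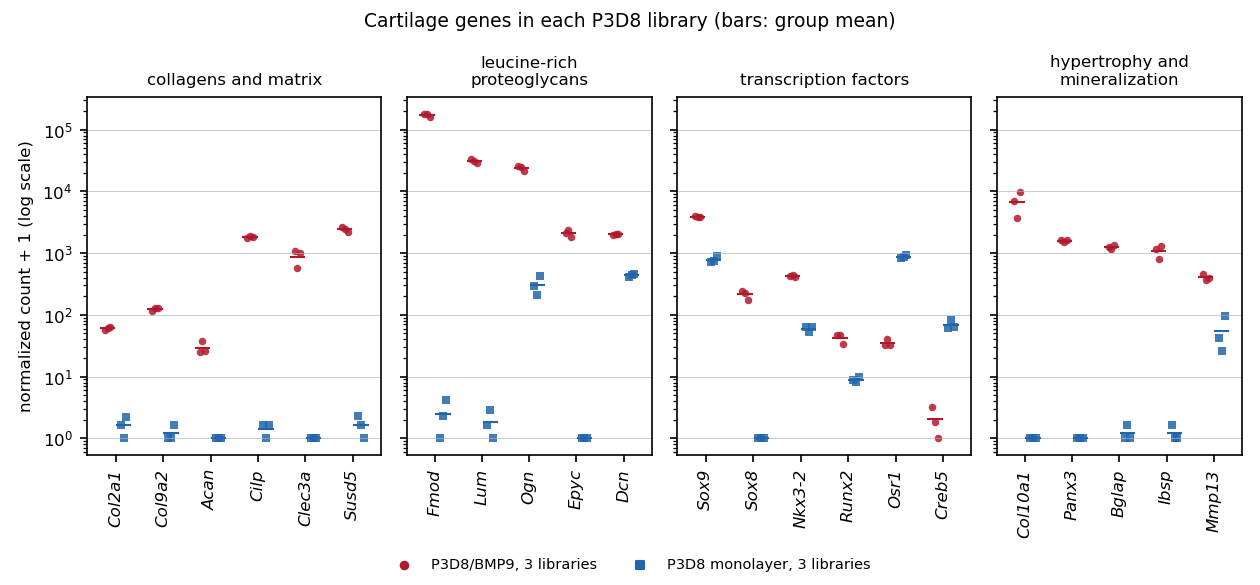
Normalized count + 1 (y axis, log scale) of 22 cartilage genes in each P3D8 library; circles are the 3 P3D8/BMP9 libraries, squares the 3 P3D8 monolayer libraries and bars the group means. The groups are apart for all 22 genes; *Osr1* and *Creb5* are the 2 shown that are lower in cartilage, *Sox9* and *Dcn* are at 403 normalized counts or more in every library, and the 3 cartilage libraries of *Col10a1* spread from 3682 to 9738.

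Genes of the articular surface and the joint went both ways. Of 19 in the table, 8 were tested, and 6 rose and 2 fell, with a median log2 fold change of 5.31. Beside *Cilp*, the increases were those of *Cilp2* (442–541 against 5.14–9.93), *Sfrp2* (a secreted Frizzled-related protein, 83.2–101 against 0), *Enpp2* (autotaxin, 373–553 against 3.86–4.35), *Tnfrsf11b* and *Thbs4*. *Tnfrsf11b*, which encodes osteoprotegerin, a decoy receptor that restrains osteoclast formation, was counted at 908, 847 and 1073 in cartilage and at 32.6, 33.4 and 45.9 in monolayer. The 2 decreases were transcription factors. *Osr1*, a zinc finger factor of joint and connective tissue progenitors, dropped from 829, 858 and 941 in monolayer to 31.3, 39.6 and 31.6 in cartilage (log2 fold change -4.65 ± 0.13 SE, limma, adjusted p = 1.2e-09). *Creb5*, a factor of superficial articular chondrocytes, went from 61.3, 82.9 and 61.5 to 2.24, 0.824 and 0 (log2 fold change -5.25 ± 0.41 SE, limma, adjusted p = 1.56e-06). Both were high in every monolayer library. *Prg4* (lubricin, 5 entries) and *Erg* (13 entries) were at 0 in all 6 libraries, and *Gdf5* was at 0.824–2.98 in cartilage and 1.29–2.48 in monolayer, under the minimum.

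Most tested genes of hypertrophic chondrocytes and of mineralization rose. Of 24 in the table, 11 were tested, of which 8 rose and 1 fell, or 8 and 3 with scaling to the library total (median log2 fold change 5.58, or 5.66 with 3 genes at their bounds). *Col10a1* (chromosome 10, 34389981 to 34397085 in GRCm38.p6), the collagen that defines hypertrophic cartilage, was counted at 7033, 3682 and 9738 in P3D8/BMP9 and at 0 in all 3 monolayer libraries, at least 10678-fold higher (log2 fold change 12.63 ± 0.30 SE, limma, adjusted p = 6.29e-10). Replicate 2 was the lowest and replicate 3 the highest of the cartilage libraries. In the paper's staining, at other culture times, P3D8 cartilage was negative for type X collagen protein. *Panx3*, a channel protein of prehypertrophic chondrocytes and osteoblasts, was at 1616, 1510.4 and 1650.4 against 0. *Bglap* (osteocalcin) was at 1242, 1162 and 1362 with 1 read in monolayer, a ratio of 5902 with a 95% counting interval of 1059 to 233163. *Bglap2*, its near-identical neighbour, was at 747, 676 and 934, and reads of the pair may not have been separable. *Ibsp*, bone sialoprotein, was at 1149, 798 and 1319.7, again lowest in replicate 2, and *Phospho1*, a phosphatase that starts mineral formation, at 47.0, 56.0 and 64.1. *Mmp13*, the collagenase of hypertrophic cartilage, was counted in both cultures, at 465, 366 and 393 against 41.1, 25.1 and 93.1, and *Sost* (sclerostin) was at 20.9, 22.2 and 53.8 against 0. *Phex*, a regulator of phosphate balance, fell, from 25.7–34.8 to 7.12–12.4 (log2 fold change -1.55 ± 0.26 SE, limma, adjusted p = 0.000406), a call lost without P3D8/BMP9 replicate 3 (-1.34), P3D8 monolayer replicate 3 (-1.45) or without both libraries of conflicting cell line entry. The call was also lost with a pseudocount of 5 (-1.26). *Ank*, a transporter of the mineral inhibitor pyrophosphate, had 5351–5536 against 12918–14719, a log2 fold change of -1.37 that passed the p threshold and not the fold threshold. *Ihh*, which times hypertrophy, *Sp7* and *Alpl* were under the minimum, with 6.71, 5.77 and 15.8, 5.97, 4.94 and 4.75 and 7.46, 9.06 and 11.9 in cartilage and at most 0.643 in monolayer.

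Most tested genes of fibrous connective tissue rose along with those of cartilage. Of 30 in the table, 21 were tested, of which 16 rose and none fell at the threshold (median log2 fold change 3.67). *Col1a2* and *Col1a1*, the chains of type I collagen, had the highest read counts of all entries in the cartilage (not corrected for length), at 538826, 547191 and 493979.7 for *Col1a2* and at 363870.2, 354167 and 346567 for *Col1a1*. In monolayer they stood at 40669, 38881 and 44211 and at 24762, 27924 and 23545. Transcripts of type I collagen were thus abundant in both cultures and higher in each cartilage library (log2 fold changes 3.67 ± 0.09 SE and 3.81 ± 0.09 SE). After a longer BMP9 culture, the paper found type I collagen protein in a fibrous layer around P3D8 cartilage and not in the cartilage itself. RNA of such a layer and of chondrocytes cannot be told apart in these libraries. *Col3a1* (2.83), *Col5a2* (2.28), *Col6a1* (4.48) and *Col12a1* (5.10) rose in the same direction. *Col14a1* and *Eln* (elastin) were at 65.1–79.9 and 32.1–84.7 in cartilage and at 0 in monolayer. *Lox*, the enzyme that cross-links collagen and elastin, rose from 16.3, 11.6 and 14.9 to 1717, 2143 and 1695, and *Dpt* (dermatopontin) from 20.2, 11.6 and 17.4 to 2578, 2431 and 2488. Tendon factors did not move together. *Mkx* rose by 2.38, while *Scx* (scleraxis) was lower in each cartilage library, at 109, 85.7 and 72.8 against 213, 234 and 242, with a log2 fold change of -1.37 ± 0.16 SE that did not reach the fold threshold (limma, adjusted p = 2.5e-05) and passed it without P3D8/BMP9 replicate 1 (-1.53). *Col6a3* overlapped between the groups (307, 438 and 140.0 against 599, 206 and 469). *Fn1*, *Postn* and *Sparc* were at 0 in all 6 libraries.

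Genes that fold, modify and export collagen were higher where they could be tested. Of 34 in the table, 17 were tested and 10 were at 0 in all 6 libraries. The 17 were higher at an adjusted p under 0.05 (37.7% of all tested entries were), 11 of them past the fold threshold (8 with scaling to the library total), with a median log2 fold change of 1.86. *Kdelr3*, a receptor that returns chaperones to the endoplasmic reticulum, was at 3086, 2817 and 3000.2 in cartilage and at 140.3, 142 and 166 in monolayer (log2 fold change 4.30 ± 0.09 SE, limma, adjusted p = 3.33e-10). *Pcolce2*, an enhancer of procollagen processing, rose from 209–319 to 10017–10844, *P3h2* (prolyl 3-hydroxylase 2) from 159–232 to 5386–5942 and *P4ha3* from 5.59–9.64 to 117–146. *Creb3l1*, a transcription factor that drives procollagen export, rose by 2.77, *Plod1* (lysyl hydroxylase 1) by 2.68, and *Calr* and *P4hb*, general chaperones of the reticulum, by 1.91 and 1.55. *P4hb* was not called with TMM scaling (1.47) or scaling to the library total (1.17). Genes of glycosaminoglycan synthesis were less uniform, with 3 of 13 tested higher and none lower past the fold threshold (28 in the table, median log2 fold change 0.80). *Chst3*, a chondroitin sulfotransferase, passed the p threshold only, at 19.8–44.3 against 9.13–12.9, and the fold threshold without P3D8/BMP9 replicate 2 (1.70) or P3D8 monolayer replicate 2 (1.55). *Has2*, which makes hyaluronan, was at 715, 745 and 733 against 1.96, 0 and 0. *Slc26a2*, the sulfate transporter that chondrocytes need to sulfate proteoglycans, rose from 185, 100.3 and 158 to 1699, 2149.8 and 855, and *Xylt1*, which starts the chondroitin sulfate chain, from 78.3, 28.3 and 59.0 to 619, 812 and 374. For both, replicate 2 was the highest and replicate 3 the lowest cartilage library, and all 3 were above every monolayer library.

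Most tested direct target genes of BMP signalling were higher in the cartilage. Of 22 in the table, 11 were tested, and 10 of the 11 rose, against 19.1% of all tested entries (median log2 fold change 4.87). Some of them, such as *Id4*, *Dlx3* and *Hey1*, were near 0 in monolayer and passed the minimum only through the cartilage libraries. *Id3*, which encodes an inhibitor of bHLH transcription factors and is one of the first genes that BMP switches on, was counted at 4453, 4478 and 4818 in cartilage and at 218, 275 and 206 in monolayer (log2 fold change 4.30 ± 0.11 SE, limma, adjusted p = 7.18e-10). *Id2* was at 2519, 2352 and 2099 against 284, 307 and 306, and *Id4* at 139, 133 and 113 against 0, 0 and 1.86. All *Id* genes tested were counted in each cartilage library well above monolayer, while *Id1*, with 2 entries, was at or under 1.65 in every library. The homeobox genes *Dlx3*, *Dlx2* and *Msx2* rose by 9.74, 4.43 and 4.87 on the log2 scale. *Dlx3*, a factor of bone and skin appendages, was at 1363, 1435 and 1171 in cartilage, with 3 reads in the monolayer libraries together, a ratio of 2071 with a 95% counting interval of 708 to 10046. *Hey1*, a bHLH repressor that BMP9 and Notch signals share, was at 726, 808 and 616 against 1.30, 1.29 and 1.86. *Msx1* was the exception, at 56.7, 53.6 and 54.6 in cartilage against 87.4, 89.4 and 80.1 in monolayer, a log2 fold change of -0.63 ± 0.14 SE (limma, adjusted p = 0.00245) in the opposite direction.

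The sequence before the start of 5 of the 10 genes that rose was in the RefSeq promoter table (GRCm38.p6), over windows of 250 bases. GGCGCC, the core of a Smad1/5 response element (its own reverse complement), was in the windows of *Id2*, *Id4* and *Dlx2*, once each, and no match was found in those of *Id3* and *Msx2*. The windows of *Id3* and *Msx2* lay wholly within annotated exons (250 of 250 bases) and that of *Id2* in part (161), counting exons of any transcript on either strand. GGCGCC was in 9.59% of 32841 windows of the same length. Those were not matched for base content, and the 5 windows held 61.6% to 75.6% G or C. GTCT or AGAC, the short Smad binding core read on either strand, was in the windows of *Id2* (1 match), *Id3* (2) and *Msx2* (1), and in 82.9% of all windows. A match is a description of these letters and not a site shown to be bound. The windows of *Id4* (chr13:48260866-48261115, + strand) and *Dlx2* (chr2:71546755-71547004, - strand) held no base of an annotated exon and are shown because each carries the longer motif, in capitals:
Id4: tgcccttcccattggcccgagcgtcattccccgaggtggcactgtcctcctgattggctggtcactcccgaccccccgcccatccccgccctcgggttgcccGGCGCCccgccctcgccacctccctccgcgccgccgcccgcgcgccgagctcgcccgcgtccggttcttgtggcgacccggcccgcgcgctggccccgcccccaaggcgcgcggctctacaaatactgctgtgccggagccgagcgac
Dlx2: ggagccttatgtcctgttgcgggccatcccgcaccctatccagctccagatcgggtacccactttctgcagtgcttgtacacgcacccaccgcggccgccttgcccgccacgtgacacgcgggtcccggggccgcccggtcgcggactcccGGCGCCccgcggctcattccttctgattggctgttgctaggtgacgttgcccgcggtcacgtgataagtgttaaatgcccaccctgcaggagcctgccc

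Several inhibitors of BMP signalling rose. *Bambi*, a pseudoreceptor that blocks BMP and TGFβ receptors, was counted at 3399, 3463 and 4451 in cartilage and at 3.26, 4.50 and 4.35 in monolayer (log2 fold change 9.55 ± 0.15 SE, limma, adjusted p = 1.26e-10). *Smad7*, the inhibitory Smad, was at 285, 263 and 237 against 39.1, 29.6 and 33.5. Of secreted BMP antagonists 8 of 14 in the table were tested and 6 rose, with a median log2 fold change of 4.71 (5.43 with 2 genes at their bounds). *Chrdl1* (chordin-like 1) was at 11189, 10461 and 11955 against 8.48, 7.07 and 3.10. *Nog* (chromosome 11, 89300638 to 89302559 in GRCm38.p6), the gene of Noggin, which binds BMP2 but not BMP9, was at 1069, 1058 and 1323 against 0, 1.29 and 4.97, and *Bmper* at 524, 533 and 527 against 8.48, 3.86 and 6.83. In each of these the lowest cartilage library was far above the highest monolayer library. *Chrdl2* and *Sost* rose by 4.49 and 4.92, *Fstl3* was called higher at 1.58 (1.49 and not called without P3D8 monolayer replicate 1), and *Fstl1* and *Twsg1* passed only the p threshold, with log2 fold changes of 1.19 and 1.13. *Fstl3* was also not called with TMM scaling (1.496) or scaling to the library total (1.21). Ligands and receptors were mostly under the minimum, 5 of 20 in the table being tested. *Bmp2*, also the growth factor added for aggregation, was itself counted at 67.9, 77.5 and 73.6 in cartilage against 22.8, 21.9 and 24.8 in monolayer (log2 fold change 1.61 ± 0.17 SE, limma, adjusted p = 1.43e-05). It was not called with scaling to the library total (1.25) or a pseudocount of 5 (1.47). *Bmp6* rose by 2.44. *Bmpr1a* was at 8.70–10.7 against 1.24–1.30, and *Acvrl1*, the type I receptor that binds BMP9 best, at 0.791–3.73 against 0; both have several entries and were not tested. The median over the 5 tested members was 0.77.

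**Figure D3:**
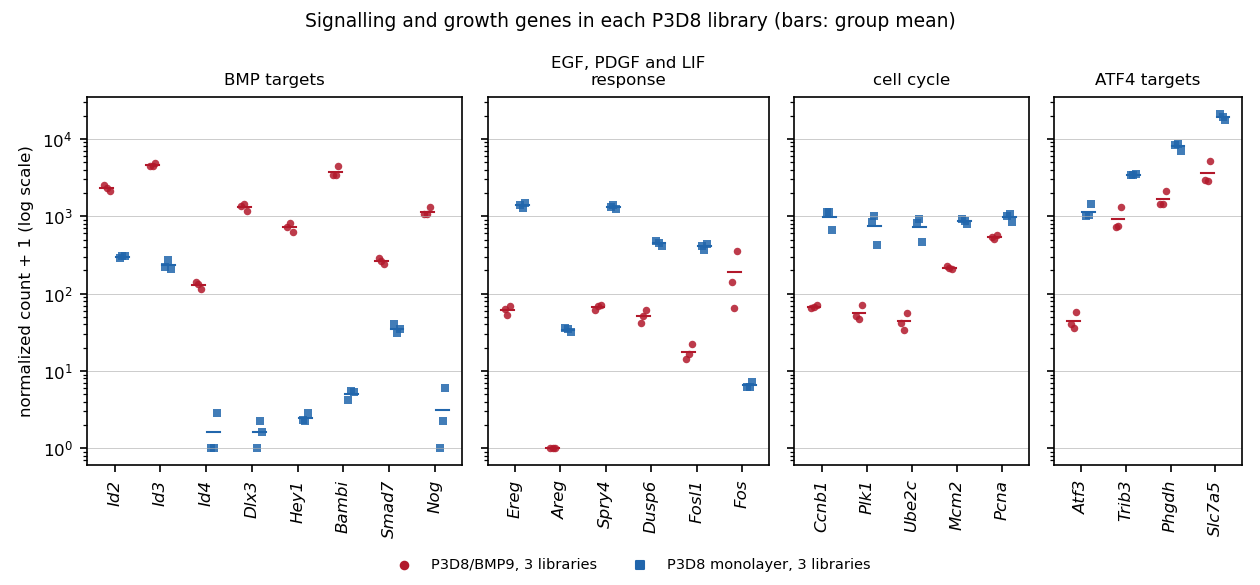
Normalized count + 1 (y axis, log scale) of 23 signalling and growth genes in each P3D8 library; circles are the 3 P3D8/BMP9 libraries, squares the 3 P3D8 monolayer libraries and bars the group means. BMP targets lie higher in cartilage in every library, EGF, PDGF and LIF response genes other than *Fos* lie lower, and P3D8 monolayer replicate 3 is the lowest monolayer library for each of the 5 cell cycle genes.

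Several inhibitors of Wnt signalling rose. Of 19 Wnt genes in the table, 8 were tested, of which 5 rose and 1 fell (median log2 fold change 5.26, or 5.63 with 2 genes at their bounds). After *Wif1*, *Frzb* (Sfrp3), a Wnt antagonist of articular cartilage, was counted at 5372, 4997 and 5017 in cartilage and at 0.652, 1.93 and 0 in monolayer. *Sfrp2*, *Sost* and *Nkd2* (Naked2, a cytoplasmic inhibitor) also rose. *Apcdd1*, an antagonist that Wnt signals induce, fell from 78.9–90.0 to 20.6–22.4 (log2 fold change -1.93), *Tcf7* and *Znrf3* overlapped between the groups, and *Axin2*, with 5 entries, was at or under 0.746 in every library.

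Of 8 tested TGFβ genes (17 in the table) 3 rose and 1 fell, with a median of 0.60. *Tgfb3*, the ligand most used to induce cartilage in culture, rose from 1061, 1155 and 1111 to 6583, 6542 and 5716 (log2 fold change 2.50 ± 0.07 SE, limma, adjusted p = 2.35e-09), and *Tgfbi*, a TGFβ-induced matrix protein, from 7021, 8174 and 6699.9 to 38277, 37999.5 and 53634. *Tgfb1* was called higher, at 2021–2292 against 633–826 (log2 fold change 1.52), and not without P3D8/BMP9 replicate 3 (1.46) or P3D8 monolayer replicate 1 (1.41). Its call was also lost with TMM scaling (1.43) and with scaling to the library total (1.14). *Tgif1*, a repressor of TGFβ targets, fell from 237–246 to 21.4–39.6. *Smad3* overlapped between the groups, at 53.7, 80.8 and 34.0 against 67.2, 44.4 and 92.5. Among 8 tested IGF genes (15 in the table) 5 rose and 1 fell, with a median of 2.19. *Igfbp4* was at 141979, 141412 and 167874 against 6579.6, 6738 and 8088, and *Igfbp5* was at 5624, 5835 and 7149 against 0.652, 0 and 1.24. Both encode secreted proteins that bind IGF. *Pappa*, a protease that cleaves IGF binding proteins, was at 53.7, 56.9 and 17.4 against 0, 0 and 1.24. *Irs1* and *Irs2*, which encode the adaptors of the IGF receptor, went in opposite directions, by 2.13 for *Irs1* and -2.33 for *Irs2*.

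Several genes that respond to EGF, PDGF and LIF fell in the cartilage. Of 28 in the table, 17 were tested, of which 8 fell and 1 rose (median log2 fold change -1.31, against -0.03 over all tested entries), or 11 and 1 with scaling to the library total. *Ereg*, which encodes the EGF receptor ligand epiregulin, was counted at 1411, 1294 and 1478 in monolayer and at 61.9, 51.9 and 67.3 in cartilage (log2 fold change -4.51 ± 0.11 SE, limma, adjusted p = 8.31e-10). *Areg* (amphiregulin) was at 35.2, 33.4 and 31.0 against 0 in every cartilage library, at least 42.3-fold lower. The receptor itself, *Egfr*, dropped from 597, 587 and 581 to 58.2, 61.8 and 55.4 (log2 fold change -3.31 ± 0.10 SE, limma, adjusted p = 2.59e-09). The feedback inhibitors of ERK signalling, *Spry4*, *Dusp6*, *Dusp5* and *Dusp4*, fell by 4.28, 3.14, 2.81 and 2.77 on the log2 scale, and the transcription factors *Fosl1* and *Etv5* by 4.54 and 3.74. Each was higher in all 3 monolayer libraries than in any cartilage library. *Fos* was the exception, at 142, 63.4 and 359 in cartilage against 5.22, 5.14 and 6.21 in monolayer, a wide spread in which replicate 2 was the lowest and replicate 3 the highest. *Egr1*, another early gene, showed the same order in cartilage, at 549, 439 and 1101 against 1174, 1376 and 1041, with overlap between the groups.

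Most tested cell division genes were lower in cartilage. Of 52 genes of the cell cycle and of DNA replication in the table, 23 were tested, of which 14 fell and 1 rose (median log2 fold change -1.99). Of all tested entries 10.6% fell and 19.1% rose. *Ccnb1* (cyclin B1) was counted at 1119.6, 1151 and 668 in monolayer and at 63.4, 65.9 and 69.6 in cartilage (log2 fold change -3.82 ± 0.19 SE, limma, adjusted p = 7.32e-08). *Ccnb2* (cyclin B2) was at 572, 673 and 336 against 50.0, 46.1 and 60.1. *Plk1* stood at 855, 993 and 427 against 50.7, 45.3 and 69.6 and *Ube2c*, which passes cells out of mitosis, at 815, 919.9 and 459 against 41.0, 33.0 and 55.4. P3D8 monolayer replicate 3 held fewer reads of these genes than the other 2, although each was above every cartilage library, and it is 1 of the libraries with a conflicting cell line entry. Without it 14 of 23 tested fell and 1 rose, with a median of -2.09. Among replication genes, *Mcm2* and *Mcm3* fell by 1.99 and 1.92, and *Pcna* had 541, 510.0 and 566 in cartilage against 998, 1075 and 833 in monolayer (log2 fold change -0.84, under the fold threshold). *Mcm6* was the gene that rose, at 18.1–21.4 against 0.643–3.73. *Mki67* and *Top2a*, with 4 entries each, were at 0 in all 6 libraries. Of 10 tested inhibitors of division (16 in the table), 3 rose and 2 fell, with a median of 0.21 that turned to -0.17 with scaling to the library total. The GADD45 stress proteins parted, *Gadd45g* and *Gadd45b* rising by 3.48 and 2.74 while *Gadd45a* went from 4909, 4914 and 5561 in monolayer to 213, 191 and 355 in cartilage (log2 fold change -4.39 ± 0.19 SE, limma, adjusted p = 3.36e-08). *Gas1*, a growth arrest gene that also binds hedgehog, rose by 2.22.

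The transcript that fell most was *Chrna1* (chromosome 2, 73563281 to 73580338 in GRCm38.p6), the α1 subunit of the muscle acetylcholine receptor, at 777, 890.3 and 729.6 in monolayer and at 0.746, 0 and 3.16 in cartilage (log2 fold change -8.68 ± 0.43 SE, limma, adjusted p = 7.26e-08). *Blnk* (chromosome 19, 40928927 to 40994221 in GRCm38.p6), an adaptor known from B cells, was at 1506, 1527 and 1537 against 5.22, 13.2 and 11.1. *Mt2*, which encodes the zinc-binding protein metallothionein 2, was at 5694, 7009.5 and 5621 against 69.4, 59.3 and 75.2. These 3 were high in all monolayer libraries. Genes whose groups overlapped could not enter this ranking. The others of the 15 largest decreases, chosen by the same rule as the increases, were *Nptx1*, *Tspan15*, *Gdpd1*, *Tmem74*, *Cst6*, *Fam110c*, *Ccl9* (a chemokine), *Prkg2* (cGMP-dependent protein kinase 2), *Klf5* (a factor of proliferating cells), *Sstr2* (a somatostatin receptor), *Usp17la* (of a multicopy deubiquitinase family whose reads may be shared) and *Rgs16* (a regulator of G protein signals), with log2 fold changes between -7.03 and -5.15. *Prkg2*, which promotes hypertrophy in the growth plate, was at 2006, 1952 and 2163 in monolayer and at 48.5, 40.4 and 35.6 in cartilage.

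Metabolic and stress genes also moved. Of 15 tested genes that ATF4 controls or that supply amino acids (26 in the table) 8 fell and none rose past the fold threshold, with a median of -1.94. *Atf3*, a stress transcription factor, fell from 999.5, 1026 and 1421 to 39.5, 34.6 and 56.2 (log2 fold change -4.70 ± 0.19 SE, limma, adjusted p = 2.08e-08). *Slc7a5*, the large neutral amino acid transporter, was at 20926, 19315 and 17674 against 2945, 2847 and 5221, *Slc7a11*, the cystine transporter, at 70.5, 18.6 and 39.7 against 4.47, 9.06 and 6.33, *Mthfd2*, a mitochondrial folate enzyme, at 18.3, 23.8 and 21.1 against 1.49, 2.47 and 6.33 and *Phgdh*, the first enzyme of serine synthesis, at 8385, 8685 and 7033 against 1427, 1435 and 2095. P3D8/BMP9 replicate 3 was the highest cartilage library for *Atf3*, *Slc7a5* and *Phgdh* and remained under every monolayer library. Cholesterol synthesis genes fell in 6 of 13 tested (23 in the table, median -1.37) and rose in none past the fold threshold. *Msmo1*, *Cyp51*, *Nsdhl*, *Idi1* and *Sqle*, enzymes of the pathway, fell by 2.15, 1.83, 1.76, 1.74 and 1.53, and *Pmvk*, which makes mevalonate diphosphate, fell from 40.4, 34.7 and 16.8 to 3.73, 3.30 and 11.9 (log2 fold change -2.22). Of these, *Sqle* was not called without P3D8 monolayer replicate 1 (-1.48), or with edgeR (-1.46) or DESeq2 (-1.46) on read counts. Of 13 tested genes of glycolysis and hypoxia (27 in the table) 2 rose and 3 fell, with a median of 0.27 that turned to -0.11 with scaling to the library total. *Bnip3*, a mitophagy receptor that hypoxia induces, rose from 284–337 to 1163–1591 and *Ero1l*, an oxidase of the reticulum, fell from 5945–7243 to 1113–1474. Of the glycolytic enzymes *Pfkl* rose by 2.42 and *Hk2* went from 46.9–71.8 to 15.8–23.9 (log2 fold change -1.67), so the list had no common direction. *Hk2* was not called with a pseudocount of 5 (-1.49).

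**Figure D4:**
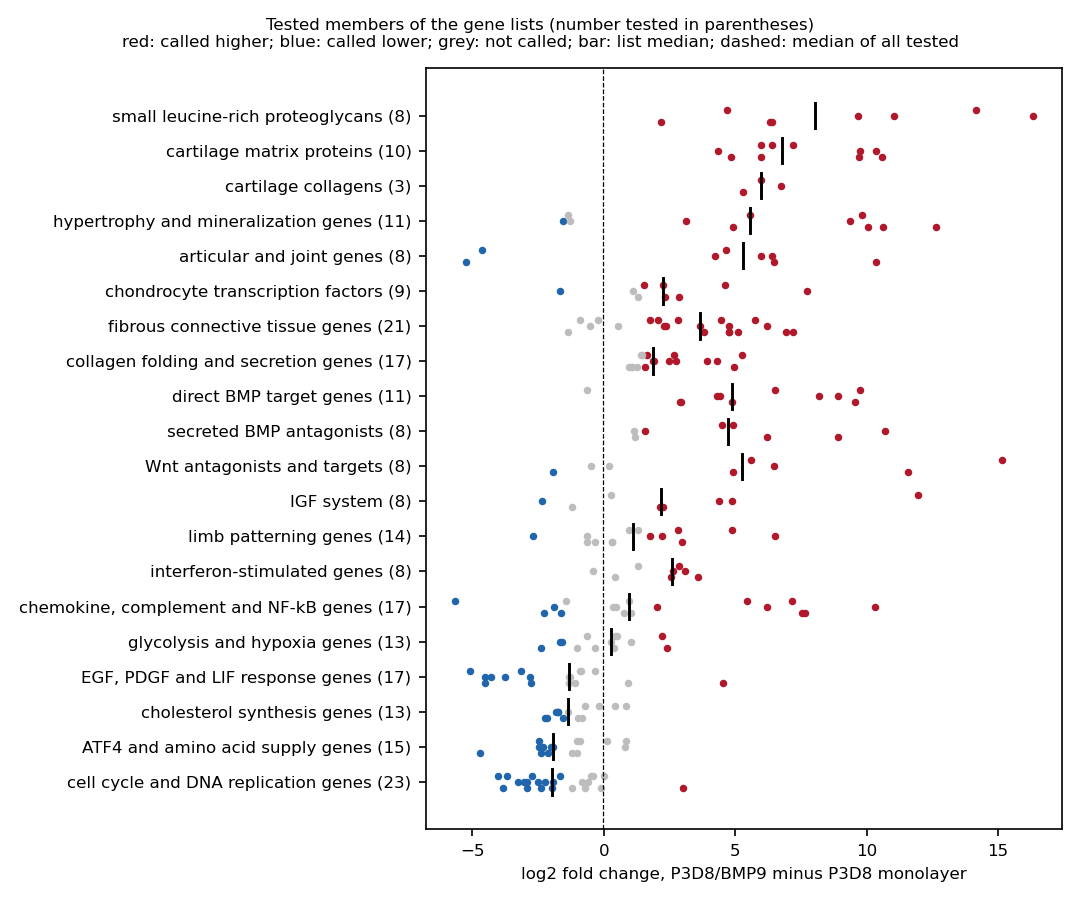
Log2 fold change (x axis, P3D8/BMP9 minus P3D8 monolayer) of the tested members of 20 gene lists (y axis, number tested in parentheses); red points were called higher, blue points lower and grey points neither, black bars are list medians and the dashed line is the median of all 5387 tested transcripts, -0.03. List medians run from 8.02 for small leucine-rich proteoglycans to -1.99 for the cell cycle; a member near 0 in one culture is shown only where it is high in the other.

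Receptors for the matrix and enzymes that cut it changed gene by gene. Collagen-binding integrin subunits rose. *Itga11* was at 1466, 1379 and 1389 in cartilage with 2 reads in monolayer (ratio 3319, 95% counting interval 918 to 27412), *Itga1* at 2583, 3032 and 2196 against 41.1, 33.4 and 26.1 and *Itga10*, the integrin subunit of chondrocytes, at 888, 971 and 854 against 62.0, 50.8 and 49.7. *Lamc1*, the laminin γ1 chain of basement membranes, fell from 7629.8–9121 to 1340.3–1564, and the other 5 of 9 tested (25 in the table) were not called. The median of the 9 was -0.00 and its sign changed with the setting. Of 16 tested proteases and inhibitors (25 in the table) 7 rose and 3 fell, with a median of 0.61. With scaling to the library total 4 rose and 4 fell. *Adamts2*, the procollagen N-proteinase, was at 29.8, 37.1 and 19.0 against 0 and *Mmp19* at 28.3–31.3 against 0.643–2.61. *Mmp3* (stromelysin 1) was at 7255, 6934 and 7262 against 25.4, 45.6 and 32.3, and the inhibitors *Timp2* and *Timp3* were called higher at 1.67 and 1.72, but not with scaling to the library total (1.29 and 1.33). The aggrecanases *Adamts5* and *Adamts4* fell by 2.84 and 1.62, from 503–629 to 70.0–91.8 for *Adamts5*.

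Of 12 tested actin, smooth muscle and YAP target genes (27 in the table) 6 rose and 2 fell, with a median of 0.61. With scaling to the library total 2 rose and 3 fell. *Lmod1*, leiomodin of smooth muscle, was at 159.8–179 against 6.52–10.9. The YAP targets parted. *Ctgf* (CCN2), also a growth factor of chondrocytes, rose from 322, 279.6 and 253 to 4625, 4659.6 and 6291 while *Ajuba*, a regulator of the pathway, fell from 1904–2434 to 553–602 and *Ankrd1* went from 26.1, 18.6 and 32.3 to 0, 0.824 and 0. *Acta2*, smooth muscle actin, and *Cyr61* (CCN1) were called higher, at 1.85 and 1.84, and were not with scaling to the library total (1.48 and 1.46).

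Genes of innate immunity rose in part. *C3*, the central complement component, was counted at 15181, 17332 and 12895 in cartilage and at 122, 84.2 and 112 in monolayer (log2 fold change 7.15 ± 0.15 SE, limma, adjusted p = 3.33e-10), *C1ra*, whose reads may be shared with its near copy C1rb, at 7150.2, 7305 and 7352 against 33.3, 40.5 and 39.1 and *Lcn2* (lipocalin 2) at 1155, 1146 and 1527 against 0. The complement genes *C1rl* and *C2* rose too, whereas *Ccl9*, *Ccl2*, *Birc3* and *Ptgs2* (cyclooxygenase 2, 2753–3708 against 9293–12697) fell, which made 7 higher and 4 lower of 17 tested (27 in the table, median 0.95). *Birc3* was called at -1.62 and not without P3D8/BMP9 replicate 3 (-1.12), P3D8 monolayer replicate 1 (-1.49) or 3 (-1.45), or both libraries of conflicting cell line entry (-1.51). Its call was also lost with a pseudocount of 5 (-1.27) and with edgeR (-1.49) or DESeq2 (-1.497) on read counts. Of 8 tested interferon-stimulated genes (23 in the table) 5 rose and none fell past the fold threshold, with a median of 2.61. *Usp18* was at 35.8, 44.5 and 85.4 against 7.18, 1.93 and 2.48, *Mx1* at 26.1, 41.2 and 28.5 against 2.61, 2.57 and 3.10, *Mx2* at 14.2, 11.5 and 37.2 against 1.30, 2.57 and 1.24 and *Lgals3bp* at 5929–8372 against 977–1143.

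Patterning genes of the distal limb remained counted in cartilage and several rose. Of 14 tested (33 in the table) 6 rose and 1 fell, with a median of 1.13. *Hoxa13* and *Hoxd13* mark the most distal limb. *Hoxa13* rose from 102, 97.7 and 109 to 737, 745 and 718 (log2 fold change 2.82 ± 0.09 SE, limma, adjusted p = 3.54e-09). *Hoxd13* was at 2181, 1998 and 1999 against 1604, 1641 and 1745, a log2 fold change of 0.31 ± 0.07 SE that turned to -0.07 with scaling to the library total. *Hoxa10*, *Hoxa11* and *Hoxd10* rose by 2.96, 1.77 and 2.21, and *Tbx2* was at 163, 157 and 151 against 0, 1.29 and 1.24. With scaling to the library total *Hoxa11* was not called (1.39). *Prrx1*, a marker of limb mesenchyme, had 458, 481 and 450.2 in cartilage and 565, 550.3 and 643 in monolayer (log2 fold change -0.34, under the fold threshold), and *Twist2* fell from 387–466 to 55.2–71.2.

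Markers of other cell types were looked for in the same libraries. Adipocyte markers were at 415 to 456 normalized counts summed in cartilage and at 3.91 to 9.31 in monolayer over 15 genes. The sum came from *Lpl* and *Fabp4* (137–189 against 0–0.652), which both rose, while *Adipoq*, *Pparg*, *Cebpa* and *Plin1* were at 0 in all 6. Glia and neuron markers (14 genes) summed to 8165 to 8590.4 in cartilage and 12902 to 15939.8 in monolayer. *S100b*, which chondrocytes also express, was at 1302, 1279 and 1267 against 0, 0 and 1.24 and *Gfap* at 195, 185 and 219 against 0, 0 and 1.86, whereas *Tubb3* and *Uchl1* fell and *Map2* was at 0. Endothelial markers (12 genes) summed to 1239.6 to 1320.0 and 21.7 to 32.0, of which *Ramp2* made up most. *Flt1*, a VEGF receptor, also rose (58.2, 43.7 and 37.2 against 9.13, 9.64 and 2.48), with *Pecam1*, *Cdh5*, *Kdr* and *Tek* at 0 in all 6. Skeletal muscle markers (17 genes) summed to 93.1 to 112 and 33.9 to 52.1, with *Des* higher in cartilage and *Myod1*, *Myog* and *Acta1* at 0. Immune markers (13 genes) summed to 201 to 269.8 and 423 to 543, with *Lyz2* at 20.9, 31.3 and 22.2 against 0, *Cd14* at 177, 213 and 244 against 492, 537 and 420.4 and *Ptprc*, *Csf1r* and *Itgam* at 0. Keratinocyte markers (11 genes) summed to 90.6 to 123 and 18.6 to 28.9, of which *Trp63* made up most in cartilage (94.0, 76.6 and 116) and none in monolayer, where *Krt18* was at 11.2–19.9, with *Krt14* at 0. The fibroblast markers (14 genes) summed to 98047 to 106818 and 45593 to 72409, with 2 higher and 2 lower of 7 tested. *Vim* made up most of the sum in both cultures and *Lum* most of the rest in cartilage. *Lum*, described above, rose most, *Vim* overlapped between the groups (64765, 65577 and 77151 against 59689, 71136 and 44325; log2 fold change 0.27, or -0.11 with scaling to the library total), *Thy1* rose from 3.26, 0.643 and 0.621 to 429.6, 431 and 649, *Pi16* and *Twist2* fell and *Pdgfra* was at 14.2–17.3 against 14.8–29.8. The part of these markers in the other changes was not tested.

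The same change was measured in the P3E3 line, in a model over all 12 libraries that tested whether the difference between cartilage and monolayer was itself different in the 2 lines. Of 5333 entries 715 (13.4%) differed by at least 1.5 on the log2 scale at an adjusted p under 0.05, 282 (5.29%) with a more positive change in P3D8 and 433 (8.12%) with a more negative one. Without the 4 of the 12 libraries whose cell line entry and title disagree, 654 were called. *Cilp* rose more in P3D8, to a mean of 1845 against 123 in P3E3/BMP9, from near 0 in both monolayers (difference 4.10 ± 0.30 SE, limma, adjusted p = 2.35e-07). *Msx2* was at 57.4, 59.3 and 54.6 in P3D8/BMP9 and at 0, 1.65 and 0 in P3E3/BMP9 (difference 4.41, limma, adjusted p = 0.000192). These libraries did not overlap, and *Itga11* and *Cilp2* also had a more positive change in P3D8. *Id3* and *Id2* had a less positive change in P3D8 (differences -3.46 and -3.94), with 4741, 5249.9 and 4627 for *Id3* in P3E3/BMP9 and 27.8, 27.3 and 12.8 in P3E3 monolayer. *Scx* was at 10.7, 9.92 and 9.44 in P3E3/BMP9 and 223, 191 and 204 in P3E3 monolayer, so that it stayed higher in P3D8-derived cartilage (difference 2.86 ± 0.22 SE, limma, adjusted p = 3.76e-07). *Col9a2* was on the other side, at 4693, 2910.2 and 1747 in P3E3/BMP9 beside the 116–129.8 of P3D8/BMP9 (difference -4.76 ± 0.44 SE, limma, adjusted p = 1.6e-06). *Clec3a*, *Panx3*, *Sox8*, *Epyc* and *Mmp13* likewise had a less positive change in P3D8 by limma, with differences from -4.36 for *Mmp13* to -2.37 for *Epyc*. *Col10a1* was at 28246, 12873 and 2233 in P3E3/BMP9 and its change was not called different (difference -0.18, limma, adjusted p = 0.889), nor were those of *Fmod*, *Wif1*, *Lum* and *Sox9* (differences 0.69, -0.93, -1.26 and -0.18). Part of these calls depended on the test. With edgeR on the recovered reads *Col9a2* (-6.35, adjusted p = 0.353), *Msx2* (2.42, adjusted p = 0.844), *Cilp2* (1.85, adjusted p = 0.175), *Sox8* (-0.70, adjusted p = 0.664) and *Chrna1* (-5.58, adjusted p = 0.0818) were not called. *Clec3a*, *Panx3* and *Epyc* were not called either. Like *Sox8*, these were at 0 in all P3D8 monolayer libraries. *Lcn2* was at 0 there as well and kept its call with edgeR. Why the tests differed for these genes was not tested. *Cilp*, *Scx*, *Itga11*, *Mmp13*, *Id2* and *Id3* were called in the same direction. The direct difference between the cartilages is only part of this measure. *Dcn* had a less positive change in P3D8 (difference -4.58) although it was at 646, 638 and 1055 in P3E3/BMP9 and higher in P3D8/BMP9, since its monolayer was at 403–465 in P3D8 and at 2.96–10.9 in P3E3. The decreases of *Chrna1*, *Nptx1*, *Sstr2* and *Usp17la* were larger in P3D8, whose monolayer expressed more of each than that of P3E3.

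**Figure D5:**
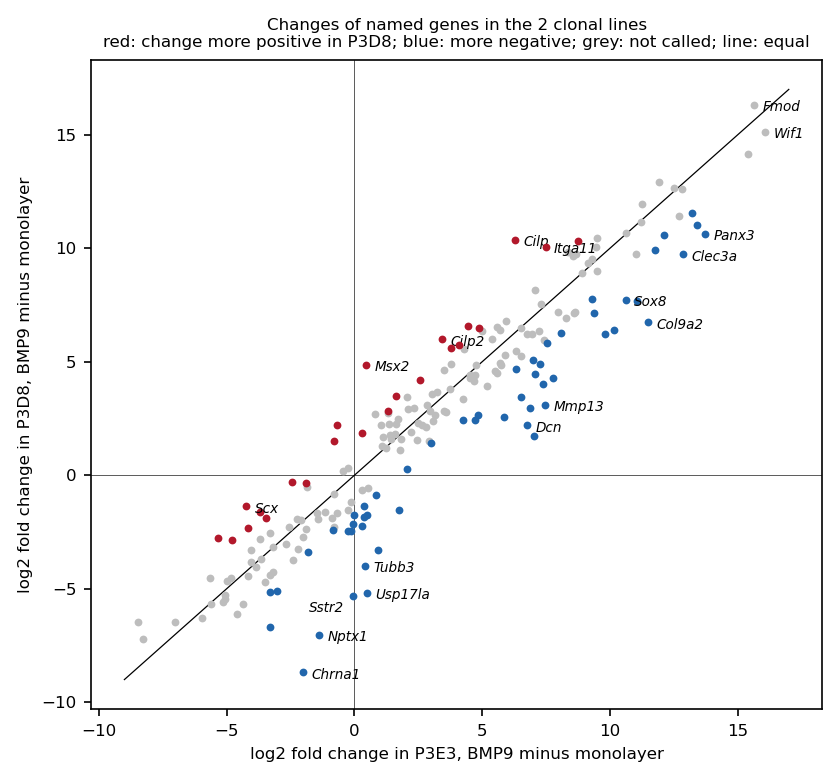
Log2 fold change from monolayer to BMP9 cartilage in P3D8 (y axis) against that in P3E3 (x axis) for genes named in the text, both from 1 model over 12 libraries; the diagonal marks equal changes, red points had a more positive and blue points a more negative change in P3D8, and grey points were not called different. *Cilp* and *Msx2* lie above the diagonal (differences 4.10 and 4.41), *Col9a2* and *Chrna1* below it (-4.76 and -6.68), and *Fmod* and *Sox9* near it (0.69 and -0.18).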

How the data were processed

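RNA of 3 separate cultures per group was extracted with a column kit and sequenced on a BGISEQ-500 as 100-base paired ends. The authors aligned reads to mm10 with HISAT2, counted them per RefSeq transcript with HTSeq and deposited counts divided by DESeq2 size factors (a normalized signal), set together with other datasets. Tool versions, strand setting and the handling of shared reads are not given in the sources used here. All deposited values (100%, within 0.01 reads) were whole multiples of the worth of 1 read, so read counts and depths were recovered. A second deposited table holds the authors' own fold changes and p-values and was not used.

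Entries that averaged 10 or more in the 6 libraries were tested with limma 3.58.1 (R 4.3.3; trend) on log2(normalized count + 1), and called at a log2 fold change past 1.5 in size and an adjusted p (Benjamini-Hochberg) under 0.05. Differences between lines came from 1 limma model over 12 libraries with an interaction. The procedure was also run on simulated data in which fewer transcripts changed than here. That run does not give its error rate on these data. A gene with several entries is represented by its most counted one. Intervals and floors (3 reads over a group) cover counting error only. Alternatives were other pseudocounts (0.5, 5) and minimums (50, none), TMM and library-total scaling, edgeR 4.0.16 and DESeq2 1.42.0 on recovered reads, 1 model for 12 libraries, groups by cell line entry, a replicate block and leaving out libraries.

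Genes were named by a rule, although not every gene it gives is described: those the study names or stained, the 15 largest called changes each way among entries that averaged 50 or more and did not overlap, the 4 largest members of each list and the 10 highest means of each group; other named genes were chosen after their values had been seen. Members and lists were chosen with earlier results of these data known. Promoter windows and positions are from RefSeq (GRCm38.p6).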

Additional observations from a re-analysis of the deposited data

Results flagged for a closer look

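For 79 genes named in the text the change from monolayer to cartilage itself differed between P3D8 and P3E3 in the model over 12 libraries (limma, absolute difference of at least 1.5 on the log2 scale, adjusted p under 0.05; 13.4% of all 5333 entries tested did). The difference, P3D8 minus P3E3, follows each gene in parentheses. A negative value means a less positive or a more negative change in P3D8. It can come from the cartilage or from the monolayer of either line. Of the 79, 41 lost the call under at least 1 alternative, named after the values.

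Among cartilage, joint and mineralization genes these were *Cilp* (4.10), *Cilp2* (2.54), *Hoxa2* (2.32), *Gdf5* (1.63), *Sfrp2* (1.63), *Nkx3-2* (1.52), *Susd5* (-1.54), *Chst3* (-1.59), *Ank* (-1.76), *Col11a1* (-2.21), *Sost* (-2.33), *Epyc* (-2.37), *Sox8* (-2.88), *Xylt1* (-3.06), *Panx3* (-3.08), *Clec3a* (-3.14), *Phex* (-3.28), *Ihh* (-3.43), *Chad* (-3.77), *Mmp13* (-4.36), *Dcn* (-4.58) and *Col9a2* (-4.76). *Cilp* had the most positive and *Col9a2* the most negative difference of these.

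Among fibrous, adhesion, protease and mesenchyme genes these were *Hoxd10* (2.88), *Scx* (2.86), *Itga11* (2.58), *Adamts5* (1.96), *Eln* (1.67), *Lmod1* (1.64), *Acta2* (1.57), *Prrx1* (1.57), *Ajuba* (1.56), *Thy1* (-1.51), *Vim* (-1.80), *Itga1* (-1.85), *Col12a1* (-1.90), *Col6a1* (-2.60), *Tgfbi* (-3.31), *Itga10* (-3.35), *Mmp3* (-3.35), *Col14a1* (-3.61), *Pi16* (-4.19) and *Timp3* (-5.33). *Timp3*, an inhibitor of matrix proteases, was at 23458, 20038 and 23457 in P3D8/BMP9 and 6626, 6219 and 7555 in P3D8 monolayer, and at 20584, 12702 and 11961 in P3E3/BMP9 and 104, 123 and 104 in P3E3 monolayer.

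Among genes of BMP, Wnt, IGF and growth factor signalling these were *Msx2* (4.41), *Dusp4* (2.55), *Smad3* (2.14), *Gadd45g* (1.85), *Irs2* (1.83), *Nkd2* (1.82), *Frzb* (-1.64), *Egr1* (-1.72), *Areg* (-2.06), *Bmp6* (-2.29), *Id3* (-3.46) and *Id2* (-3.94). *Msx2* and *Id2* lay at opposite ends although both are BMP targets, with *Id2* at 26.6, 32.6 and 28.6 in P3E3 monolayer against 284, 307 and 306 in P3D8 monolayer.

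The remaining ones were *Trp63* (2.13), *Birc3* (2.09), *Lcn2* (1.55), *Uchl1* (-1.54), *Ero1l* (-1.56), *Lyz2* (-1.68), *Ramp2* (-1.71), *Idi1* (-1.73), *S100b* (-1.82), *Pfkl* (-1.84), *Rgs16* (-1.86), *Msmo1* (-2.12), *Lgals3bp* (-2.19), *Slc7a5* (-2.21), *Cyp51* (-2.22), *Gfap* (-2.25), *Nsdhl* (-2.25), *Mthfd2* (-2.31), *Pmvk* (-2.51), *Tspan15* (-3.38), *Tubb3* (-4.43), *Sstr2* (-5.24), *Nptx1* (-5.67), *Usp17la* (-5.69) and *Chrna1* (-6.68).

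With edgeR on the recovered reads 26 of the 79 were not called, namely *Areg*, *Bmp6*, *Chad*, *Chrna1*, *Cilp2*, *Clec3a*, *Col11a1*, *Col14a1*, *Col9a2*, *Eln*, *Epyc*, *Ero1l*, *Frzb*, *Gdf5*, *Ihh*, *Lyz2*, *Msx2*, *Nkd2*, *Panx3*, *S100b*, *Sfrp2*, *Sost*, *Sox8*, *Susd5*, *Thy1* and *Trp63*. Of these, genes such as *Clec3a*, *Epyc*, *Panx3* and *Sox8* had no reads in P3D8 monolayer. *Lcn2*, also without reads there, kept its call with edgeR. With a pseudocount of 5 the 13 not called were *Birc3* (1.41), *Chst3* (-1.17), *Eln* (1.48), *Gdf5* (1.34), *Itga1* (-1.13), *Lcn2* (0.27), *Nkx3-2* (1.46), *Pfkl* (-1.18), *Ramp2* (-1.39), *Sfrp2* (1.499), *Susd5* (-1.24), *Thy1* (-1.31) and *Uchl1* (-1.07). Without the 4 libraries of conflicting cell line entry the 11 not called were *Birc3* (2.36), *Bmp6* (-2.28), *Eln* (1.62), *Ero1l* (-1.36), *Hoxa2* (1.68), *Ihh* (-2.37), *Lcn2* (1.68), *Pfkl* (-1.49), *Rgs16* (-1.41), *S100b* (-1.34) and *Thy1* (-1.18). Leaving out 1 library took the call from 21 genes. Without P3D8 monolayer replicate 1 these were *Bmp6* (-2.30), *Gdf5* (1.66), *Susd5* (-1.26), *Thy1* (-1.05) and *Uchl1* (-1.39). Without P3D8 monolayer replicate 2 these were *Ajuba* (1.48), *Bmp6* (-1.92), *Chst3* (-1.45), *Frzb* (-1.24), *Gdf5* (1.47) and *Nkx3-2* (1.43). Without P3D8 monolayer replicate 3 these were *Acta2* (1.41) and *S100b* (-1.43). Without P3D8/BMP9 replicate 1 these were *Bmp6* (-2.33), *Gdf5* (1.34) and *Thy1* (-1.41). Without P3D8/BMP9 replicate 2 these were *Bmp6* (-1.95), *Chst3* (-1.30), *Egr1* (-1.45), *Ero1l* (-1.47), *Nkx3-2* (1.497) and *Thy1* (-1.41). Without P3D8/BMP9 replicate 3 these were *Eln* (1.34), *Gdf5* (1.66), *Lcn2* (1.42), *Susd5* (-1.47) and *Uchl1* (-1.40). Without P3E3 monolayer replicate 1 these were *Acta2* (1.45), *Bmp6* (-2.08), *Chst3* (-1.45), *Lcn2* (1.10), *Lmod1* (1.499), *Nkx3-2* (1.47) and *Susd5* (-1.43). Without P3E3 monolayer replicate 2 these were *Acta2* (1.46), *Bmp6* (-2.30), *Chst3* (-1.44), *Frzb* (-1.48), *Nkx3-2* (1.49) and *Ramp2* (-1.43). Without P3E3 monolayer replicate 3 these were *Ero1l* (-1.45), *Prrx1* (1.49), *Susd5* (-1.43), *Thy1* (-1.08) and *Uchl1* (-1.36). Without P3E3/BMP9 replicate 1 these were *Bmp6* (-1.68), *Nkx3-2* (1.45), *Rgs16* (-1.25) and *Thy1* (-1.48). Without P3E3/BMP9 replicate 2 these were *Ajuba* (1.399), *Bmp6* (-2.17), *Gdf5* (1.17), *Sfrp2* (1.497), *Thy1* (-1.49) and *Uchl1* (-1.38). Without P3E3/BMP9 replicate 3 these were *Acta2* (1.49), *Gdf5* (1.62), *Lyz2* (-1.499), *Prrx1* (1.498), *Sfrp2* (1.42) and *Thy1* (-1.56). The cause was not tested.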

How the results depend on the processing

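Of 56 alternative counts of called entries 51 lay within 1.5 times the reported one. The number of entries higher in cartilage was 557 with a minimum mean of 50 and 2400 with no minimum (20532 entries tested), and 2031 with no fold threshold, where 2126 were lower; scaling to the library total gave 926 lower. edgeR and DESeq2 on the recovered reads gave 1109 and 1111 higher and 537 and 542 lower. Leaving out 1 library at a time gave 947 to 1110 higher and 546 to 598 lower entries, and 632 to 762 differences between the lines (715 reported). Grouping by the cell line entry instead of the title gave 971 higher and 499 lower. The labels do not say whether libraries with the same replicate number belong to 1 experiment, and they were not treated as pairs. Their deviations from the group mean correlated at 0.0465, -0.294 and -0.115. Libraries of different number gave -0.213 to 0.291, so these values cannot decide on a pairing. With the replicate number as a block 1027 were higher, 571 lower and 705 different between the lines.

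Of 3989 alternative values of 214 single genes 3909 kept their direction and side of the threshold, 64 were no longer past it, 10 newly passed it and 6 changed sign, in 41 genes. Among these alternatives, other minimums, the model over 12 libraries and the replicate block leave a fold change unchanged and alter only its p-value. Signs changed with scaling to the library total for *Hoxd13* (-0.073), *Vim* (-0.11) and *Znrf3* (-0.18), and with 1 library left out for *Smad3* (-0.60 to 0.016), *Tcf7* (-0.98 to 0.27) and *Znrf3* (-0.090 to 0.40). Of 1258 alternative differences between the lines 1147 kept direction and side, 110 fell short (in 41 of 79 genes together) and that of *Nkd2* changed sign with edgeR (-0.18). Medians of lists changed sign in 18 of 701 cases. With a minimum mean of 50 these were BMP ligands and receptors (-0.26), actin and YAP targets (-0.31), integrins and laminins (2.10), glycolysis (-0.034), glia and neuron markers (3.07) and immune markers (-1.20). With scaling to the library total they were cell cycle inhibitors (-0.17) and glycolysis (-0.11), and with groups from the cell line entry cell cycle inhibitors (-0.032). The median of integrins and laminins, near 0, also turned with a pseudocount of 5 (0.0097), edgeR (0.15), DESeq2 (0.14), the model over 12 libraries (0.076), groups from the cell line entry (0.50) and with 1 library left out (-0.16 to 0.24). That of immune markers ran from -1.21 to 1.85 with 1 library left out. The cause was not tested. Genes at a few reads per library and genes split over several entries limit what these libraries can show.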

Other observations

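Transcripts of the mitochondrial genome and of the cytosolic ribosome, 2 lists added after the data had been seen, moved in opposite directions. Mitochondrial genome transcripts held 6.47% to 6.69% of the normalized counts in P3D8/BMP9 and 2.54% to 2.59% in P3D8 monolayer. Of 13 such genes 9 rose past the fold threshold and 11 were higher by the p threshold alone (limma), with a median log2 fold change of 1.60, against 19.1% and 37.7% of all tested entries; with scaling to the library total 4 rose past the fold threshold. Ribosomal protein transcripts held 3.75% to 4.26% in P3D8/BMP9 and 9.67% to 10.6% in P3D8 monolayer. Of 85 ribosomal protein genes in the table, 53 were tested, none was called at the fold threshold and 48 were lower by the p threshold (limma; 39.5% of all tested entries were), and with scaling to the library total 16 were called lower. The groups did not overlap in either share.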
